A study of Mus musculus with 14 samples.

Results

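The interferon regulatory factors (IRFs) are a family of transcription factors. The 8 genes *Irf1*, *Irf2*, *Irf3*, *Irf4*, *Irf5*, *Irf7*, *Irf8* and *Irf9* were chosen by gene name as a family, with earlier results of these data known, from the 49315 genes of the spleen count table and the 18603 genes of the ovary table. All 8 were present in both tables and all 8 passed the filter on low values in both tissues.

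RNA-seq of poly(A) RNA was compared between mice lacking *Zfp36l2* (L2-fKO) and wild-type mice. ZFP36L2 is an RNA-binding protein that binds AU-rich elements of mRNAs and promotes their decay. The L2-fKO mice carried both *Zfp36l2* alleles in recombined form, derived from floxed alleles with exon 2 flanked by loxP sites. They also carried a Cre transgene under the CMV promoter, which deletes in all tissues and is not particular to a cell type. They were the second generation of a cross of floxed and Cre mice. The wild-type mice had 2 intact *Zfp36l2* copies and, by the labels, carried the CMV-Cre transgene too. All were pups, and the labels give no ages. The spleens came from 4 wild-type mice (2 females and 2 males) and 4 L2-fKO mice (1 female and 3 males), and the ovaries from 3 wild-type and 3 L2-fKO mice, and each library was made from a single mouse. The third L2-fKO spleen and the first L2-fKO ovary came from the same mouse. The labels name the spleen source as an organoid and the knockout as L2-cKO, whereas the methods describe dissected spleen.

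The libraries held 39138010 to 45167464 reads on genes in the spleen and 31052510 to 44270070 in the ovary. For *Zfp36l2* itself the normalized counts were 5739 ± 1419 in the wild-type spleens against 339 ± 52.9 in those of the L2-fKO (mean ± SD, n = 4 each), and 4840 ± 83.9 against 926 ± 145 in the ovaries (n = 3 each). In the ovaries the summed normalized count of 9 oocyte genes was 121913 to 136661 per library, against 13.0 to 29.2 in the spleens. The B cell list was detected in every spleen. Neutrophil markers (7 of 8 genes lower with an adjusted p below 0.05) and megakaryocyte and platelet markers (6 of 6 lower) differed between the spleens of the genotypes, and pancreatic acinar genes summed to 4687 to 18181 in wild-type spleens 1, 2 and 4 and to 25.5 to 78.2 in the other 5 spleens. In such bulk tissue, fewer cells of a type and less RNA per cell cannot be told apart.

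IRFs share a DNA-binding domain that recognizes GAAA repeats, as in the interferon-stimulated response element. Viral nucleic acids sensed by Toll-like receptors or cytosolic sensors lead to phosphorylation of IRF3, IRF5 and IRF7, which induce interferons. Interferon signalling through JAK and STAT proteins then forms ISGF3, a complex that contains IRF9 and induces interferon-stimulated genes, *Irf7* among them. IRF1 activates and IRF2 mostly represses overlapping targets, and IRF4 and IRF8 direct the development of lymphocytes and of myeloid and dendritic cells, which are abundant in the spleen.

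Because ZFP36L2 binds UAUUUAU, the longest 3′UTR of each member in GENCODE mouse release 21 (GRCm38) was searched for these letters. *Irf4* and *Irf8*, the lymphoid and myeloid members, each held 1 match, and the other 6 members held none. Over the genes tested in the spleen with an annotated 3′UTR, 29.5% held at least 1. Both sites are shown on the mRNA strand with the 7 letters in capitals, since they are the sequences that the deleted protein could meet in this family. The *Irf4* site lies at chr13:30766400-30766428 on the plus strand, with the match starting at base 2744 of a 3′UTR of 3309 bases, and the *Irf8* site at chr8:120756613-120756641 on the plus strand, at base 1449 of 1519.
Irf4: ucuguuuuuguUAUUUAUcucccuaaauc
Irf8: uaguguccaaaUAUUUAUuuuuguauucu
The letters alone show that a match is present and nothing of binding. The study reported that an RNA probe holding the printed *Irf8* sequence bound ZFP36L2 in a gel-shift assay. *Irf4* is not among its listed probes. The study also placed *Irf8*, which it cites as modulated by ZFP36L2 in T cells, among the unchanged genes of the L2-fKO spleen by RNA-seq. Its text reports the same by RT-qPCR, whereas the legend of its RT-qPCR figure describes *Irf8* as decreased. The shorter AUUUA occurred 3 times in the 3′UTR of *Irf4*, 2 times each in those of *Irf1*, *Irf2*, *Irf5* and *Irf8*, 1 time in that of *Irf9*, and not in those of *Irf3* and *Irf7*.

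Wild-type levels were compared between members per length, as RPKM values (reads per kilobase of exon, scaled to library size). In the wild-type spleens *Irf8* (19.2 ± 6.93 RPKM, SD, n = 4) and *Irf5* (18.6 ± 7.79) were at the top of the order, followed by *Irf3* (12.9 ± 1.12), *Irf7* (12.5 ± 5.30), *Irf9* (11.9 ± 3.25), *Irf2* (10.1 ± 1.81) and *Irf1* (8.81 ± 3.14). *Irf4* was lowest, at 3.78 ± 3.18 RPKM. The ranges of every pair of neighbours in this order overlapped, although *Irf4* was below *Irf1* in all 4 libraries.

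The wild-type ovaries held another order. *Irf3*, which is made in most cells, was highest at 15.6 ± 1.44 RPKM (SD, n = 3), then *Irf1* at 8.72 ± 1.20, *Irf5* at 3.43 ± 0.405, *Irf2* at 3.32 ± 0.181 and *Irf9* at 3.04 ± 0.430. *Irf8* (0.709 ± 0.0792 RPKM) and *Irf7* (0.642 ± 0.0851) were lower, and *Irf4* was at 0.0781 ± 0.0493, on 5 to 18 reads per library. Neighbours overlapped from *Irf5* to *Irf2*, from *Irf2* to *Irf9* and from *Irf8* to *Irf7*, and did not overlap at the other steps. Set side by side, the wild-type mean in spleen was 48.5 times that in ovary for *Irf4*, 27.1 times for *Irf8* and 19.5 times for *Irf7*, but 1.01 times for *Irf1* and 0.827 times for *Irf3*. The 2 tissues were normalized separately and these ratios were not tested.

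Wild-type spleen 1 and L2-fKO spleen 4 stood apart in the levels of the members. Wild-type spleen 1 had the highest normalized count of the wild-type spleens for 8 of 8 members, and L2-fKO spleen 4 the highest of the L2-fKO spleens for 8 of 8 members. Over all 16911 genes tested, both libraries were the highest of their genotype for 21.1%. Over all genes, wild-type spleen 3 was more often the highest of its genotype (34.4% of genes) than wild-type spleen 1 (28.5%). Within the knockout group, library 4 held the top value for 43.07% of all genes and the bottom value for 38.05%. Its top rank was thus not particular to the family. The summed normalized count of 40 interferon-stimulated genes was 113045 in wild-type spleen 1 against 62676 to 77501 in the other wild-type spleens, and 162932 in L2-fKO spleen 4 against 66217 to 79590 in the other L2-fKO spleens. The sum of 10 B cell markers was 79643 against 15610 to 35831, and 43398 against 16547 to 26950, in the same order. Their part in the levels of the members was not tested. Wild-type spleen 1 was from a female and L2-fKO spleen 4 from a male. Results of the spleen are therefore given with these libraries and, by a choice made after seeing the data, without them.

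**Figure D1:**
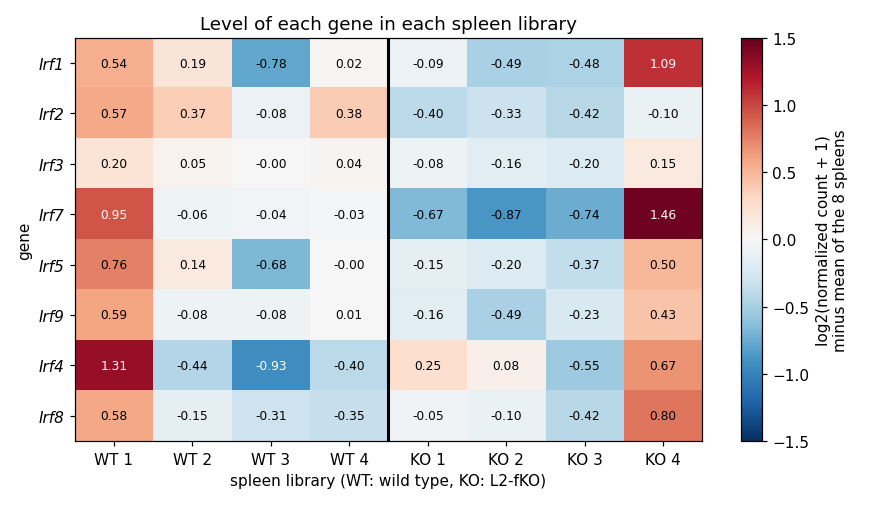
Level of each member (rows) in each spleen library (columns) as log2(normalized count + 1) minus the mean of the 8 spleens, with red above and blue below that mean. Columns WT 1 and KO 4 are above the mean for every member except *Irf2* in KO 4 (-0.10), and *Irf7* in KO 4 has the highest value, 1.46.

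Spleens of L2-fKO and wild-type mice were compared to ask how the loss of *Zfp36l2* alters mRNA levels. *Irf2*, a mainly repressive factor that competes with IRF1, was lower in L2-fKO spleens and was the only member with an adjusted p below 0.05 (edgeR's quasi-likelihood test, Benjamini-Hochberg adjustment over 16911 genes). Over all genes tested, 13.4% passed this limit. No member also passed an absolute log2 fold change of 1, as 6.01% of all genes did, and none did by DESeq2 either; at an unadjusted p below 0.05 there was 1 of 8 members, *Irf2*, against 29.0% of all genes. The median log2 fold change was -0.12 over the 8 members and -0.02 over all genes.

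The normalized counts of *Irf2* were 3794, 3318, 2418 and 3343 in wild-type spleens 1 to 4 and 1947, 2041, 1913 and 2399 in L2-fKO spleens 1 to 4. The groups did not overlap, but the highest L2-fKO value and the lowest wild-type value lay close together. Among all genes tested, 20.4% had groups that did not overlap, and of the members only *Irf2* did. On average the L2-fKO level was 64.5% of that in wild type, and the log2 fold change was -0.63 (SE 0.15, 95% interval -0.96 to -0.31, adjusted p = 0.0198, edgeR). An exact two-sided permutation test gave p = 0.0286, the smallest that 4 against 4 allows. Leaving out 1 library at a time gave log2 fold changes of -0.75 to -0.54, and the adjusted p rose to 0.0690 without L2-fKO 1, 0.0589 without L2-fKO 2, 0.0586 without wild-type 2 and 0.0625 without wild-type 4. Without both libraries that stood apart the log2 fold change was -0.62 (adjusted p = 0.0177, edgeR).

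*Irf2* was also the one member whose promoter held the response element letters of its own family. RefSeq promoter windows (GRCm38.p6, 250 bases before to 50 after a start) were found for all 8 members, 11 windows in all, and were searched on both strands for GAAANNGAAA, a core of the interferon-stimulated response element, and for TTCNNNGAA, the palindromic core of a STAT site. GAAANNGAAA was found in 1 of the 11 windows, that of *Irf2*, and in 3.44% of all 32851 windows. TTCNNNGAA was found in 1 window each of *Irf1*, *Irf2* and *Irf8*, and in 8.30% of all windows. The *Irf2* window, chr8:46739495-46739794 on the plus strand, is shown because its member passed the test, with both matches in capitals; they do not overlap each other.
Irf2 promoter: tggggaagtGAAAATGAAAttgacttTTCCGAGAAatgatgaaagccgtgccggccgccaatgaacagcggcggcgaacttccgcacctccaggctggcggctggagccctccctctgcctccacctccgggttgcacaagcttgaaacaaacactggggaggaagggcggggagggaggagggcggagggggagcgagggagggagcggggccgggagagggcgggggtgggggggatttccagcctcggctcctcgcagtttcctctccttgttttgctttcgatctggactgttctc
These matches are a description of letters and not of bound sites.

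*Irf7*, the amplifier of the interferon response, varied most between spleens. Its normalized counts were 3223, 1603, 1630 and 1640 in wild-type spleens 1 to 4 and 1053, 917, 1003 and 4600 in L2-fKO spleens 1 to 4. L2-fKO spleens 1 to 3 were below every wild-type spleen, whereas L2-fKO spleen 4 was above them all. Over all 8 libraries the log2 fold change was -0.09 (SE 0.52, 95% interval -1.26 to 1.07, adjusted p = 0.927, edgeR), so that neither a doubling nor a halving lies outside the interval. Without L2-fKO spleen 4 it was -1.03 (SE 0.25, adjusted p = 0.0246), with 18.0% of all genes at an adjusted p below 0.05 and 6.68% also past the fold limit in that fit. Without both libraries that stood apart it was -0.71 (SE 0.096, adjusted p = 0.00280), where 17.9% of all genes had an adjusted p below 0.05. Both libraries were picked after seeing their high levels of the members, *Irf7* included, so the SE and p of that fit are a description. The call for *Irf7* in the spleen thus changed with 1 library.

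*Irf9*, the DNA-binding subunit of ISGF3, had normalized counts of 3779, 2375, 2377 and 2519 in wild-type and 2249, 1787, 2129 and 3371 in L2-fKO spleens. As with *Irf7*, L2-fKO spleens 1 to 3 were below all wild-type spleens and L2-fKO spleen 4 was not. The log2 fold change was -0.21 (SE 0.22, adjusted p = 0.556, edgeR). It was -0.43 (adjusted p = 0.131) without L2-fKO spleen 4, -0.02 (adjusted p = 0.954) without wild-type spleen 1 and -0.24 (adjusted p = 0.162) without both.

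*Irf3*, the constitutive factor activated by TBK1, varied least. Its normalized counts were 2082, 1879, 1805 and 1864 in wild-type and 1713, 1622, 1572 and 2002 in L2-fKO spleens. Again L2-fKO spleens 1 to 3 lay below the wild-type range. The log2 fold change was -0.14 (SE 0.11, 95% interval -0.39 to 0.10, adjusted p = 0.417, edgeR).

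*Irf5*, which acts downstream of Toll-like receptors in B cells and macrophages, had 3564, 2334, 1320 and 2108 in wild-type and 1909, 1838, 1628 and 2985 in L2-fKO spleens. The groups overlapped throughout, and the log2 fold change was -0.16 (SE 0.29, adjusted p = 0.755, edgeR). *Irf1*, an activator induced by interferon gamma, had normalized counts of 2100, 1648, 839 and 1466 in wild-type and 1356, 1027, 1035 and 3079 in L2-fKO spleens, with a log2 fold change of 0.10 (SE 0.38, adjusted p = 0.890, edgeR). Wild-type spleen 3 was the lowest library for both genes. Without both libraries that stood apart the log2 fold changes were -0.18 for *Irf3* (adjusted p = 0.199, edgeR), -0.10 for *Irf5* (0.755) and -0.21 for *Irf1* (0.577).

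*Irf8*, required for type 1 conventional dendritic cells and for monocyte development, had normalized counts of 8679, 5261, 4712 and 4578 in wild-type and 5607, 5413, 4354 and 10141 in L2-fKO spleens. Its log2 fold change was 0.14 (SE 0.29, 95% interval -0.50 to 0.78, adjusted p = 0.793, edgeR), and 0.08 (adjusted p = 0.680) without both libraries that stood apart. *Irf4*, which directs plasma cell differentiation, had 1747, 519, 369 and 533 in wild-type and 839, 743, 481 and 1120 in L2-fKO spleens. Wild-type spleen 1 was the highest of all for *Irf4*, and the other 3 wild-type spleens were below L2-fKO spleens 1, 2 and 4. The log2 fold change of *Irf4* was 0.01 (SE 0.46, adjusted p = 0.995, edgeR) with all libraries and 0.54 (adjusted p = 0.140) without both libraries that stood apart. In the male libraries alone, 2 wild type and 3 L2-fKO, it was 0.78 (adjusted p = 0.0431, edgeR), where 15.0% of all genes had an adjusted p below 0.05. The male libraries leave out wild-type spleen 1 and keep L2-fKO spleen 4. Without wild-type spleen 1 alone, both sexes kept, it was 0.75 (adjusted p = 0.11, edgeR). The 2 members with a UAUUUAU match thus did not pass the test over all libraries.

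Markers of the cells that use IRF4 and IRF8 were set beside these values. For the counts that follow, 13.4% of all genes tested in the spleen had an adjusted p below 0.05 (edgeR, either direction). Of 7 plasma cell genes, 4 rose in L2-fKO spleens (edgeR, adjusted p below 0.05), among them *Tnfrsf17*, the receptor BCMA (3.46 ± 1.28 to 20.1 ± 6.11 normalized counts, SD, n = 4), *Jchain*, which joins immunoglobulin polymers (log2 fold change 1.89), and *Xbp1*, a factor of secretory cells (0.90). The sum of the list was 5254 to 8368 in wild-type and 11515 to 15683 in L2-fKO spleens. None of 10 B cell genes passed by edgeR or DESeq2, and by edgeR none had an unadjusted p below 0.05. None of the 10 had a positive log2 fold change, and their median was -0.58. The B cell sum was 15610 to 79643 in wild-type and 16547 to 43398 in L2-fKO spleens. Of 8 genes of type 1 conventional dendritic cells only *Itgae*, an integrin, rose (0.85), and the sum was 7403 to 14184 in wild-type and 7683 to 15621 in L2-fKO spleens. Of 6 type 2 genes 2 fell, *Cd209a* (-4.13) and *Klf4* (-0.69), and of 7 plasmacytoid dendritic cell genes 2 fell, *Klk1* (-4.89) and *Runx2* (-0.94). The type 2 sum was 8535 to 10100 in wild-type and 9906 to 18639 in L2-fKO spleens. The plasmacytoid sum was 5267 to 14281 in wild-type and 4975 to 8985 in L2-fKO spleens. *Klk1* is a kallikrein that other tissues also make. Of 10 monocyte and macrophage genes, *Ccr2* (-1.61) and *Ly6c2* (-1.28) fell and *Adgre1*, the macrophage antigen F4/80, rose (0.87). Over this list 7 of 10 genes had a positive log2 fold change, with a median of 0.40. The sum of the list was 37282 to 60272 in wild-type and 55181 to 98476 in L2-fKO spleens. The part of these cells in the levels of *Irf4* and *Irf8* was not tested.

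**Figure D2:**
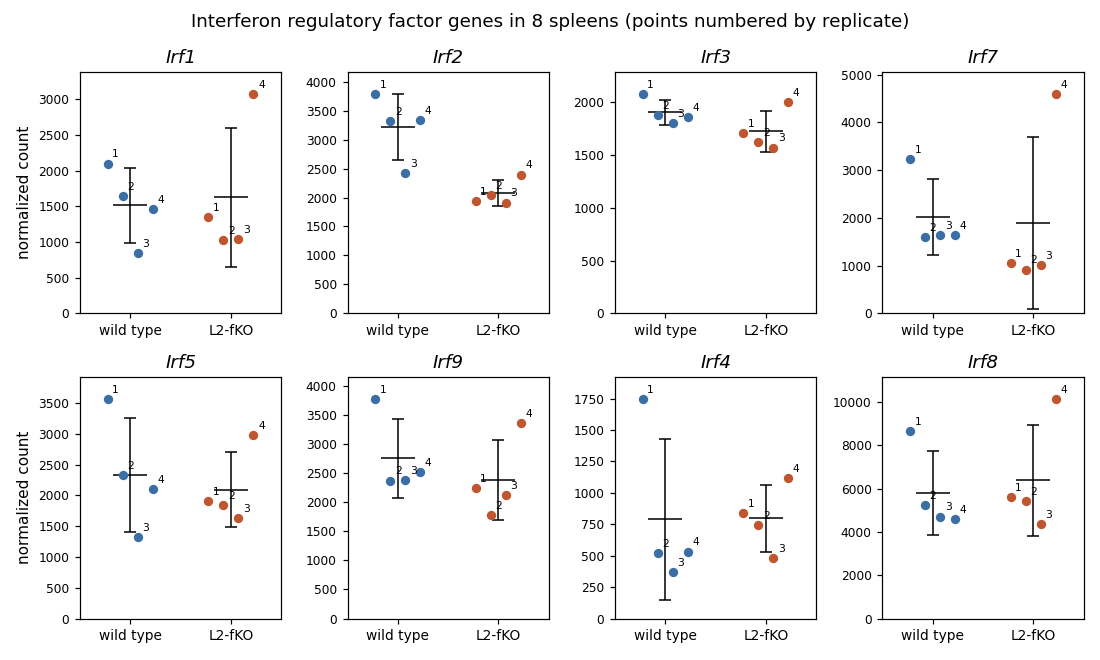
Normalized count (linear axes from 0) of each member in 4 wild-type (blue) and 4 L2-fKO (orange) spleens, numbered by replicate, with the mean (horizontal line) and SD (whiskers). Replicate 1 of the wild type and replicate 4 of the L2-fKO are the highest points of their groups in all 8 panels, and the groups are apart for *Irf2* alone.

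The genes around the family in the pathway were taken from lists. As above, 13.4% of all genes tested in the spleen had an adjusted p below 0.05 (edgeR, either direction). Of 19 upstream sensors, adaptors and kinases, 1 passed in the spleen, *Tlr4*, the receptor for lipopolysaccharide (442 ± 85.8 in wild type, 804 ± 242 in L2-fKO; SD, n = 4; log2 fold change 0.86, adjusted p = 0.0281, edgeR). Of 11 interferon genes only *Ifng* had enough counts to be tested (11.1 ± 3.64 and 11.9 ± 11.0; log2 fold change 0.14, adjusted p = 0.896, edgeR). Of 14 receptor and JAK-STAT genes, *Socs3*, an inhibitor of cytokine signalling, rose from 593 ± 93.8 to 3172 ± 426 (log2 fold change 2.42, adjusted p = 1.9e-05, edgeR), and *Ifnlr1*, a subunit of the receptor for type III interferon, fell from 100.1 ± 24.9 to 39.2 ± 3.66 (-1.35, adjusted p = 0.00462). Of 17 partners and cofactors of IRFs, *Batf3*, which works with IRF8 in dendritic cells, rose from 138 ± 27.1 to 268 ± 76.7 (0.96, adjusted p = 0.0241).

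Few targets of the family passed the test in the spleen. Of 40 interferon-stimulated genes, *Iigp1*, a GTPase induced by interferon, rose (log2 fold change 2.45, adjusted p = 0.0229, edgeR) and *Cmpk2*, a mitochondrial nucleotide kinase, fell (-0.58, adjusted p = 0.0296). Over all genes, 13.4% had an adjusted p below 0.05. The median over the list was 0.18, against -0.02 over all genes, with 31 of 40 genes positive. The median changed sign with 1 library left out: it was -0.32 without L2-fKO spleen 4 (10 of 40 positive) and 0.55 without wild-type spleen 1 (37 of 40). It was 0.70 in male libraries only, which leave out wild-type spleen 1 and keep L2-fKO spleen 4. At an unadjusted p below 0.05, 3 rose and 3 fell, or 6 of 40, against 29.0% of all genes. *Iigp1* was at 419 to 862 in wild-type and at 1345 to 7690 in L2-fKO spleens, so the groups did not overlap. Its adjusted p was 0.0548 with the replicate number as a block, 0.0574 with sex as a covariate, 0.0550 in male libraries only, 0.0768 without wild-type spleen 2 and 0.0765 without wild-type spleen 4, and DESeq2 gave it no p. *Cmpk2* lost its call in male libraries only (adjusted p = 0.0811, edgeR) and in 5 of the 8 fits with 1 library left out, where its adjusted p reached 0.0941. Without both libraries that stood apart, 3 genes of the list rose and 6 fell with an adjusted p below 0.05, and the list's median was -0.02. In that fit 17.9% of all genes had an adjusted p below 0.05. Those that fell were *Oasl1* (-2.63), *Oas1a* (-1.05), *Usp18* (-0.94), *Ifit1* (-0.92), *Cmpk2* (-0.75) and *Ifit2* (-0.66), and those that rose were *Iigp1* (1.71), *Gbp5* (0.87) and *Nlrc5* (0.63).

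The genes whose log2 CPM followed each member most closely over the 8 spleens were looked up among 10970 genes with a mean of at least 5 CPM. For *Irf7* these were *Oas1a*, an antiviral synthetase (Pearson's r 0.992, Spearman's rho 0.952), and *Xaf1* (r 0.989, rho 0.905), both interferon-stimulated genes. *Irf1* was followed by *Epsti1* (r 0.991) and *Bst2* (0.988), *Irf5* by the MHC class II gene *H2-Ab1* (0.992), and *Irf8* by *Zdhhc18* (0.997) and *Fgd2* (0.997). *Irf2* was followed by *Hdac8* (0.989) and *Hcst* (0.989), *Irf3* by *Gpr157* (0.995) and *Arhgap4* (0.992), *Irf9* by *AI987944* (0.988) and *Clec2i* (0.983), and *Irf4* by *Arntl* (0.994) and *Dpp4* (0.983). Without wild-type spleen 1 and L2-fKO spleen 4, r over the other 6 spleens was 0.988 for *Oas1a* and 0.937 for *Xaf1* with *Irf7*. These genes were picked as the best of many over libraries that share genotype and depth, and the values are a description.

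Ovaries of L2-fKO and wild-type mice were compared in the same way with limma on log2(normalized count + 1) over 18504 genes. *Irf7* and *Irf9* had the highest log2 fold changes of the members, and their groups did not overlap, but no member passed an adjusted p below 0.05, as 1.58% of all genes did. None therefore passed the fold limit too, as 0.957% of all genes did. At an unadjusted p below 0.05 there were 2 members, against 16.8% of all genes. The same 2 of 8 members had groups that did not overlap, as 25.2% of all genes had. The median log2 fold change was 0.03 over the members and -0.0043 over all genes.

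*Irf7* had normalized counts of 87.6, 80.2 and 100.9 in wild-type ovaries 1 to 3 and 133, 209 and 148 in L2-fKO ovaries 1 to 3. Every L2-fKO ovary was above every wild-type ovary. The log2 fold change was 0.84 (SE 0.22, 95% interval 0.33 to 1.35, p = 0.00552, adjusted p = 0.121, limma), and the exact permutation p was 0.1, the smallest that 3 against 3 allows. DESeq2 on the recovered reads gave 0.87 with an adjusted p of 0.0185, in a fit that gave 6.03% of all genes an adjusted p below 0.05. Over all alternatives the adjusted p was 0.0185 to 0.359.

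*Irf9* had normalized counts of 565, 559 and 690.0 in wild-type and 698, 853 and 863 in L2-fKO ovaries. The groups were apart by a small gap between wild-type ovary 3 and L2-fKO ovary 1. The log2 fold change was 0.41 (SE 0.13, 95% interval 0.11 to 0.71, p = 0.0139, adjusted p = 0.176, limma; exact permutation p = 0.1), and the adjusted p was 0.0862 to 0.471 over the alternatives.

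The remaining members overlapped between the genotypes. *Irf2*, which passed the test in the spleen, had 871, 932 and 925 in wild-type and 924, 782 and 999 in L2-fKO ovaries (log2 fold change -0.02, SE 0.11, 95% interval -0.27 to 0.23, limma). *Irf3* had 1854 to 2133 in wild-type and 1798 to 2095 in L2-fKO ovaries (-0.01, SE 0.089). *Irf1* had 1086 to 1398 in wild-type and 893 to 1170 in L2-fKO ovaries (-0.26, SE 0.14, adjusted p = 0.404, limma). For *Irf5* the ranges were 329 to 399 and 341 to 458 (0.07, SE 0.15), and for *Irf8* 159 to 202 and 172 to 282 (0.20, SE 0.21). *Irf4* had 4.18 to 21.9 in wild-type and 8.05 to 12.5 in L2-fKO ovaries (-0.24, SE 0.58, 95% interval -1.60 to 1.12), on 5 to 18 reads per library. Whether the fold changes of a member differed between spleen and ovary was not tested.

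**Figure D3:**
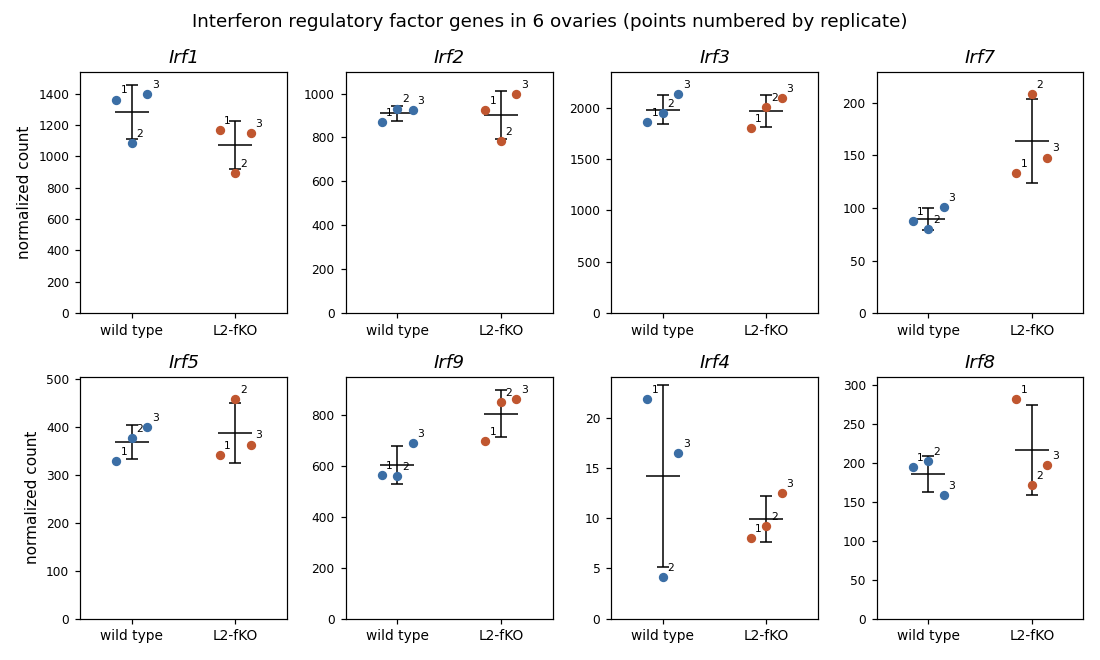
Normalized count (linear axes from 0) of each member in 3 wild-type (blue) and 3 L2-fKO (orange) ovaries, numbered by replicate, with the mean (horizontal line) and SD (whiskers). The groups are apart for *Irf7* (80.2 to 100.9 against 133 to 209) and *Irf9* (559 to 690.0 against 698 to 863) and overlap for the other 6.

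**Figure D4:**
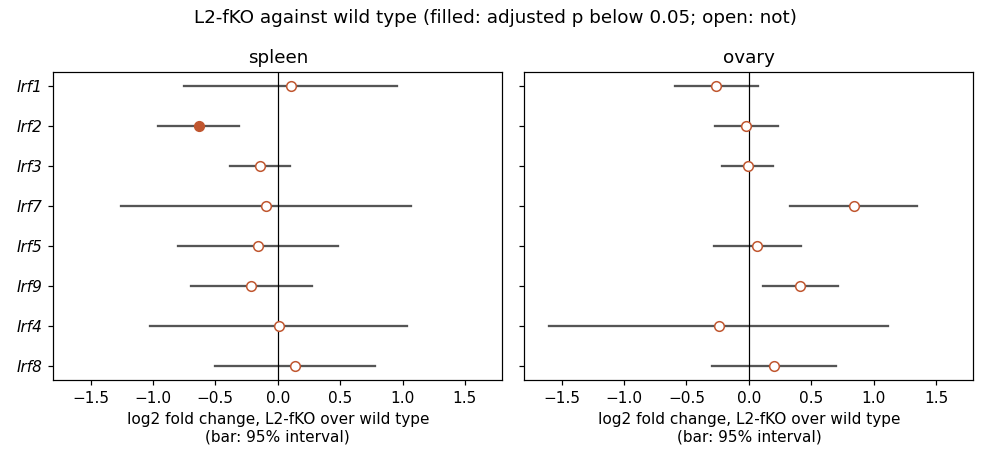
Log2 fold change of L2-fKO over wild type (x axis) of each member in spleen (edgeR) and ovary (limma), with 95% intervals as bars. The interval excludes 0 for *Irf2* in the spleen and for *Irf7* and *Irf9* in the ovary, of which only *Irf2* has an adjusted p below 0.05 (filled).

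Interferon-stimulated genes, the targets of ISGF3 and IRF7, were mostly higher in L2-fKO ovaries. Of 38 tested, 34 had a positive log2 fold change, as 49.3% of all genes had. At an adjusted p below 0.05 (limma) 3 rose and none fell, against 1.58% of all genes in either direction. The 3 were *Oas3*, an antiviral synthetase (13.0 ± 4.68 in wild type, 50.4 ± 11.5 in L2-fKO; SD, n = 3; log2 fold change 1.90, adjusted p = 0.0428, limma), *Isg15*, a ubiquitin-like modifier (41.5 ± 6.38 and 131 ± 31.6; 1.62, adjusted p = 0.0266), and *Trim30a* (463 ± 30.2 and 947 ± 33.1; 1.03, adjusted p = 0.00450). With 1 library left out at a time, *Trim30a* passed in 6 of 6 fits, *Isg15* in 2 and *Oas3* in 0, with adjusted p up to 0.0414, 0.132 and 0.184. At an unadjusted p below 0.05, 19 of 38 were higher and none lower, and in 20 the L2-fKO ovaries lay above all wild-type ovaries. Over all genes, 16.8% had an unadjusted p below 0.05 and 25.2% had groups that did not overlap, in either direction. The list's median was 0.44, against -0.0043 over all genes. The summed normalized count was 14498 to 15453 in wild-type and 16581 to 18457 in L2-fKO ovaries. DESeq2 on the recovered reads gave 12 genes with an adjusted p below 0.05, all higher, against 6.03% of all genes in either direction.

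Upstream of the family, none of 19 sensors and kinases and none of 14 receptor and JAK-STAT genes passed in the ovary (limma, adjusted p below 0.05). Of all genes tested in the ovary, 1.58% passed by limma and 6.03% by DESeq2. At an unadjusted p below 0.05 there were 3 of the former, all higher, and 2 higher and 1 lower of the latter. DESeq2 on the recovered reads gave 1 of the former (higher) and 3 of the latter (2 higher, 1 lower) an adjusted p below 0.05. Of 16 partners tested, *Ets1*, a lymphoid partner factor that is also made in other cells, rose (3820 ± 45.2 and 4809 ± 46.9; SD, n = 3; log2 fold change 0.33, adjusted p = 0.0378, limma). The sum of 5 pan-leukocyte genes was 714 to 814 in wild-type and 889 to 1189 in L2-fKO ovaries, and 5 of 5 had a positive log2 fold change, with none at an adjusted p below 0.05 by limma, 2 at an unadjusted p below 0.05, and 1 at an adjusted p below 0.05 by DESeq2. Of 9 monocyte and macrophage genes tested 7 had a positive log2 fold change, of 8 erythroid genes 4 and of 4 neutrophil genes 1, with none at an adjusted p below 0.05 by limma. Of the monocyte and macrophage genes, 4 were higher at an unadjusted p below 0.05 (limma), against 16.8% of all genes in either direction. Of 8 B cell genes tested 6 had a positive log2 fold change and 4 were higher at an unadjusted p below 0.05. The B cell sum was 428 to 503 in wild-type and 530 to 761 in L2-fKO ovaries. By DESeq2, 3 monocyte and macrophage genes, 1 erythroid gene and 1 B cell gene were higher at an adjusted p below 0.05. *Ptprc*, the leukocyte antigen CD45, was at 104.1 ± 21.9 and 155 ± 45.0. Among T cell genes *Cd4*, which macrophages and dendritic cells can also make, rose (54.5 ± 7.13 and 245 ± 64.4; log2 fold change 2.12, adjusted p = 0.00933, limma). The part of blood cells in the levels of *Irf7*, *Irf9* and their targets was not tested.

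**Figure D5:**
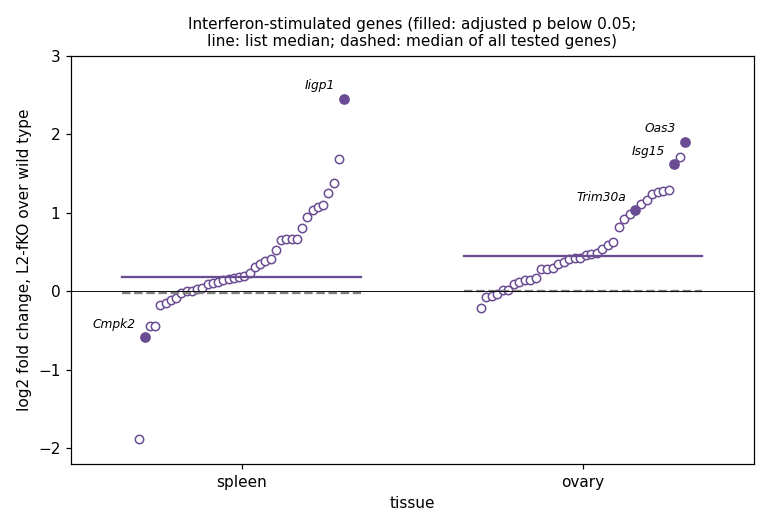
Log2 fold change of L2-fKO over wild type (y axis) for the interferon-stimulated genes tested, 40 in spleen and 38 in ovary, in rank order within each tissue (x axis), with filled points at an adjusted p below 0.05. The solid line is the list's median (0.18 in spleen, 0.44 in ovary) and the dashed line the median of all genes tested.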

How the data were processed

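For the spleen, the authors removed adapters with Trimmomatic 0.36, aligned to GRCm38 with STAR 2.5.2b, and assigned uniquely aligned reads to exons, taking strand into account, with Subread 1.5.2 (featureCounts). The spleen counts were used as deposited, raw and per gene. For the ovary the deposited table of the comparison holds signal values that the authors normalized as counts divided by 1 factor per library. All its values came out as whole reads (100.0% within 0.001), so reads were recovered for alternatives. The authors' fold change and p columns and their normalized spleen values were not used.

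Spleen counts were tested with edgeR 4.0.16 (TMM, quasi-likelihood) on genes with at least 10 counts in 4 or more libraries, and ovary values with limma 3.58.1 (intensity trend) on log2(value + 1), for genes of at least 10 in 3 or more libraries. Log2 fold changes with the pseudocount of 1 understate changes of low genes. A normalized count of the spleen is the count divided by the TMM-scaled library size, times the mean of these sizes. The p-values were adjusted by Benjamini-Hochberg over all genes tested (R 4.3.3). DESeq2 1.42.0, other filters, sex, the replicate number and each library left out were alternatives. The scripts were tested on simulated data. Intervals cover the spread between animals.

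The members and gene lists were chosen with earlier results of these data known. Named were the 8 members, *Zfp36l2*, up to 3 genes per list with the largest change at an adjusted p below 0.05, and the 2 genes most like each member in the spleen. Some genes that this rule names are not reported here. *Ifng*, *Ptprc* and the genes of the fit without 2 libraries were named after their values were seen. In the labels 2 wild-type spleens carry number 3, and the one from the second male was taken as number 4. Libraries of a group differed by more than counting noise.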

Additional observations from a re-analysis of the deposited data

Results flagged for a closer look

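In groups of 4 spleens, a library was marked where its gap to the nearest other as a share of the group's range exceeded the 95% critical value of Dixon's test; chance marks about 1 in 20 groups, and 16 groups were tested. The ovary groups of 3 were not tested. All 6 marks fell on wild-type spleen 1 or L2-fKO spleen 4, as the highest library. In wild-type spleen 1 the gap was 0.977 of the range for *Irf7* (3223 against 1603 to 1640), 0.898 for *Irf9* (3779 against 2375 to 2519), 0.881 for *Irf4* (1747 against 369 to 533) and 0.834 for *Irf8* (8679 against 4578 to 5261). In L2-fKO spleen 4 it was 0.963 for *Irf7* (4600 against 917 to 1053) and 0.840 for *Irf1* (3079 against 1027 to 1356). The marks share libraries and are not independent of each other.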

How the results depend on the processing

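Under alternatives other than leaving out 1 library, 57 of 64 spleen log2 fold changes of members kept their direction and their side of the threshold. The 57 include *Irf7* by DESeq2, which had no p and so no known side. With 1 library left out, 46 of 64 kept both. In the ovary these were 47 of 48 and 41 of 48. With sex as a covariate *Irf1* was at -0.027, and with male libraries only *Irf5*, *Irf7* and *Irf9* were at 0.015, 0.44 and 0.014. The male libraries include L2-fKO spleen 4 but not wild-type spleen 1. Without both libraries that stood apart, added after seeing the data, *Irf1* was at -0.21. Leaving out 1 library changed signs in the spleen within -0.41 to 0.30 for *Irf1*, -0.23 to 0.75 for *Irf4*, -0.38 to 0.12 for *Irf5*, -1.03 to 0.22 for *Irf7* and -0.18 to 0.40 for *Irf8*. In the ovary these ranges were -0.10 to 0.080 for *Irf2*, -0.058 to 0.053 for *Irf3*, -0.89 to 0.18 for *Irf4*, -0.061 to 0.15 for *Irf5* and -0.0026 to 0.35 for *Irf8*. DESeq2 gave no p for *Irf7* in the spleen.

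The number of members with an adjusted p below 0.05 in the spleen, 1, became 2 in male libraries only and 2 without both libraries that stood apart, and was 0 to 2 with 1 library left out; members also past the fold limit were 0 to 1 (*Irf7* without L2-fKO spleen 4). DESeq2 made it 1 in the ovary. Of the interferon-stimulated genes, 2 passed in the spleen, against 5 with every gene of at least 1 count tested, 1 with sex as a covariate, 0 in male libraries only, 9 without both libraries that stood apart, and 0 to 7 with 1 library left out. In the ovary 3 passed, against 12 by DESeq2 and 1 to 3 with 1 library left out, of which only *Trim30a* passed in every such fit. The causes were not tested.

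The study describes the spleens as from age-matched pairs of animals, and the labels do not say whether the replicate numbers mark them. Same-numbered libraries deviated from their group means with correlations of -0.293 to 0.179 in the spleen and 0.0723 to 0.382 in the ovary. Between libraries of other numbers the correlations were -0.291 to 0.437 in the spleen and -0.326 to 0.184 in the ovary. In the ovary every same-numbered correlation was positive, and these few values cannot decide whether the numbers mark pairs. The main fits did not take the numbers as pairs. Blocking on the number gave 539 ovary genes an adjusted p below 0.05, against 292 without it (limma). In the spleen these were 1247 against 2267 (edgeR). With the replicate number as a block, *Irf2* in the spleen had a log2 fold change of -0.62 (adjusted p = 0.0419, edgeR), and no member changed its call. Of the interferon-stimulated genes, *Oasl1* (-2.27) and *Cmpk2* (-0.59) passed in the spleen under the block, *Iigp1* (adjusted p = 0.0548) did not, and 4 passed in the ovary. *Irf4* in the ovary rests on few reads.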
